A study of Mus musculus with 8 samples.

Results

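The 10 genes described here encode enzymes of mitochondrial beta-oxidation: Acadm, Acadl, Acadvl, Acads, Hadha, Hadhb, Hadh, Acaa2, Etfdh and Eci1. Open chromatin near them was mapped with ATAC-seq, an assay that cuts and tags accessible DNA with a transposase, in flash-frozen liver. All mice were male C57BL/6, 9 weeks old and fasted for 24 hours. There were 2 libraries for each of 4 genotypes, namely wild type (WT), Cpt2 knocked out in liver (Cpt2 L-/-), Ppara knocked out (Ppara -/-, whole-body per the label of the combined line) and the combined knockout (Cpt2 L-/- ; Ppara -/-), called double knockout here. Wild type and Cpt2 knockout are together called Ppara-intact, and Ppara knockout and double knockout Ppara-null. The Cre line behind the liver knockout of Cpt2 and whether the wild types were littermates are not given in the sources used here. A consensus region of the authors' table belonged to a gene when that gene's span was the nearest protein-coding span, at 0 bp if overlapping and within 100 kb. By this rule 29 of the 49587 consensus regions belonged to the 10 genes. Etfdh had none, and the farthest region lay 17308 bp from its gene.

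Beta-oxidation shortens fatty acyl-CoA in the mitochondrial matrix by a repeated cycle of dehydrogenation, hydration, a second dehydrogenation and thiolysis, and it supplies the fasted liver with acetyl-CoA for ketone bodies and with energy for glucose synthesis. Acyl-CoA dehydrogenases of different chain-length preference open the cycle, and the later steps are run by the trifunctional protein on the inner membrane and by soluble enzymes. Cpt2, the inner-membrane carnitine palmitoyltransferase, delivers long-chain substrate to this cycle. Ppara, a nuclear receptor that binds fatty acids, pairs with RXR on a direct repeat of the hexamer AGGTCA separated by 1 base (a DR1 element) and is known as an activator of many of these genes in fasting.

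The promoters that the peaks overlie, or leave uncovered, are shown for 5 of the genes, each from 250 bases before to 50 after the transcription start (RefSeq, GRCm38.p6, the assembly of mm10). These were chosen because Acads and Eci1 stood at the opposite ends of the fold comparison given further on, Hadhb shares its region with Hadha, Acadvl had no peak in 1 library, and Acadm had no region at its start. Capitals mark AGGTCA on either strand in the sequences of Acadvl and Acadm, and CG dinucleotides in those of Acads, Hadhb and Eci1, where AGGTCA did not occur.
Acadvl, chr11:70015379-70015678, minus strand: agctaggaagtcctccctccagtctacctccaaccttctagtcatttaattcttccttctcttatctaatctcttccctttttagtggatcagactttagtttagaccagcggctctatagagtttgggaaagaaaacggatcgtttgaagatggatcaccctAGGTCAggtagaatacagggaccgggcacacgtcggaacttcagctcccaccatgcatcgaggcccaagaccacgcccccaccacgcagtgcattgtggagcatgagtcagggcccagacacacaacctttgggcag
Acadm, chr3:153944594-153944893, minus strand: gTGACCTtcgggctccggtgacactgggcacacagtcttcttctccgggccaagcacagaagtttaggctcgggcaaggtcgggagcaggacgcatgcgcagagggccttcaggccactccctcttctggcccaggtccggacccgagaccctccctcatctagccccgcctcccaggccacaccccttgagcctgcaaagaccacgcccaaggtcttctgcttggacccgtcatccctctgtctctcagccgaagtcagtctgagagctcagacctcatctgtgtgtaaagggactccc
Acads, chr5:115119297-115119596, minus strand: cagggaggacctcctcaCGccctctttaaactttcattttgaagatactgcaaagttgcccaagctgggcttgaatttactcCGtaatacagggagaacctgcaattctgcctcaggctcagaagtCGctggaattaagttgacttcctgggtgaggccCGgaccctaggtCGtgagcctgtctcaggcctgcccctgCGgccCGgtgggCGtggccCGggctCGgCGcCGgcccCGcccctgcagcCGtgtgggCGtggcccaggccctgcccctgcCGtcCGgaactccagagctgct
Hadhb, chr5:30155003-30155302, plus strand: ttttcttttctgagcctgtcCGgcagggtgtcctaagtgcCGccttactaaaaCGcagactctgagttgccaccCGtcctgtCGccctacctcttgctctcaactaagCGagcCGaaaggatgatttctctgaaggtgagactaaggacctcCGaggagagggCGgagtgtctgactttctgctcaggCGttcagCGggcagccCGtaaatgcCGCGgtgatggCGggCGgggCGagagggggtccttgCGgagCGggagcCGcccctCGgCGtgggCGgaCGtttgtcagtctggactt
Eci1, chr17:24426433-24426732, plus strand: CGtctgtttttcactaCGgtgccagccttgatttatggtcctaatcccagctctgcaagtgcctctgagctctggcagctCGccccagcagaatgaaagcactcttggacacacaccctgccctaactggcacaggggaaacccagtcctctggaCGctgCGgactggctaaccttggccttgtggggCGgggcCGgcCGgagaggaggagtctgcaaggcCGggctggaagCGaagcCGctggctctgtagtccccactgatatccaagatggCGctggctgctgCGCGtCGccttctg

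Of the 10 genes, 9 matched an entry of the promoter table. AGGTCA, read on both strands, occurred in 2 of these 9 promoters, against 14.7% of 21263 protein-coding promoters of the same length. The whole element, AGGTCANAGGTCA on either strand with up to 2 mismatches over its 12 defined bases, occurred in none of the 9, against 3.32% of all promoters, and its exact form in 0.047% of all promoters. Since only windows of 300 bases were read, nothing follows from this about elements elsewhere. The 9 promoters had 9 to 34 CG dinucleotides with a median of 17, where all promoters had a median of 13, and a GC content of 50.7% to 70.3% with a median of 61.3%, where all promoters had 56.3%.

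The libraries themselves differed in the direction of most of the values that follow. Ppara-intact lists held 28733 to 39296 peaks and Ppara-null lists 18132 to 22715, and the number that each list carries in the names of its peaks, 441, 443, 446 or 4717 for Ppara-intact and 6831 to 6834 for Ppara-null, splits the same way, so that anything it stands for cannot be told apart from Ppara status. Total reads per library are not given in the sources used here, so depth is unknown. Hepatocyte identity was checked at transcription starts: 6 of 8 hepatocyte markers had a peak there in each Ppara-intact library and 4 to 5 in each Ppara-null one, while Ttr and Cps1 had none in any. Of 30 markers of 5 other liver or blood cell types, 27 had no peak at their start in any library, and none had one in all 8. The 27 included all markers of Kupffer cells, cholangiocytes and lymphocytes. Of 6 stellate markers, 1 to 2 had a peak there in each Ppara-intact library and 0 in each Ppara-null one. Of 6 endothelial markers, 0 to 1 had one on either side. Endothelial markers also had 39 of the 66 regions described next. Of the 66 regions nearest to these 30 genes, each Ppara-intact library called 39.4% to 65.2% and each Ppara-null library 9.09% to 12.1%, where the 92 regions of the hepatocyte markers went from 56.5% to 70.7% down to 44.6% to 51.1%. These regions moved with Ppara status too, and their part in the results was not tested. In whole liver, fewer cells with an open site and less opening per cell cannot be told apart.

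Regions of the beta-oxidation genes were called less often in the Ppara-null than in the Ppara-intact libraries, and so were regions elsewhere in the genome. Of the 29 regions, 13 and 19 were called in wild type libraries, 18 and 21 in Cpt2 knockout, 9 and 10 in Ppara knockout, and 10 and 9 in double knockout. Every Ppara-intact library lay above every Ppara-null one. The share of regions called averaged 61.2% ± 11.7 in the 4 Ppara-intact and 32.8% ± 1.99 in the 4 Ppara-null libraries (SD, n = 4 each), a difference of -28.4 percentage points. The other 49558 regions differed by -30.6 points, from 69.4% to 38.9%. When each list was reduced to its strongest 18132 peaks by −log10 p, the length of the shortest list, each library called 8 to 10 of the 29 regions and the mean share was 31% on both sides. The difference of the beta-oxidation regions was then 0, and that of all other regions was -0.687 points, from 36.4% to 35.7%. Lists of equal number bring the shares over all regions close together by construction. These values therefore do not tell why the full lists differed, which was not tested.

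**Figure D1:**
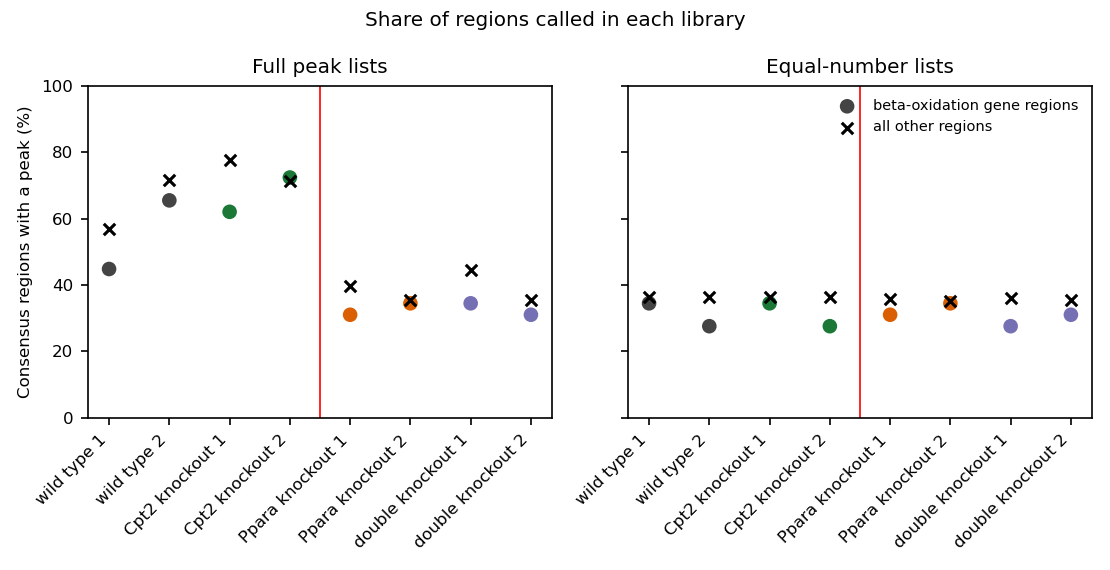
Percentage of consensus regions with a peak (y axis) in each library (x axis), for the 29 regions of beta-oxidation genes (dots, coloured by genotype) and for all other regions (crosses), with full peak lists on the left and equal-number lists on the right. The red line parts Ppara-intact from Ppara-null libraries; with full lists the dots lie at 44.8% to 72.4% left of it and at 31% to 34.5% right of it, and with equal-number lists the sides overlap.

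Regions called in every library lay mainly at gene starts, and those called in few libraries away from them. Of the 29, 6 overlapped a transcription start, 1 lay at an end of Acaa2, 15 lay inside genes and 7 outside. Calls in all 8 libraries were made at 6 of the 29 regions, the steady regions in what follows, and 22.7% of all consensus regions were called this widely. Of these 6, 5 were at a start or at the Acaa2 end and 1 inside Acadm. Genome-wide, 56.9% of regions overlapping a start and 15.4% of regions away from one were called in all 8. At the other extreme, 9 of the 29 were called in a single library, 8 of them in a Ppara-intact one, where 23.0% of all regions were called in 1 library alone. The split of such calls by side is given for the 29 only, and the Ppara-intact lists held more peaks. The gene table used gives no exons, so regions are placed only relative to the start and the span of a gene.

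**Figure D2:**
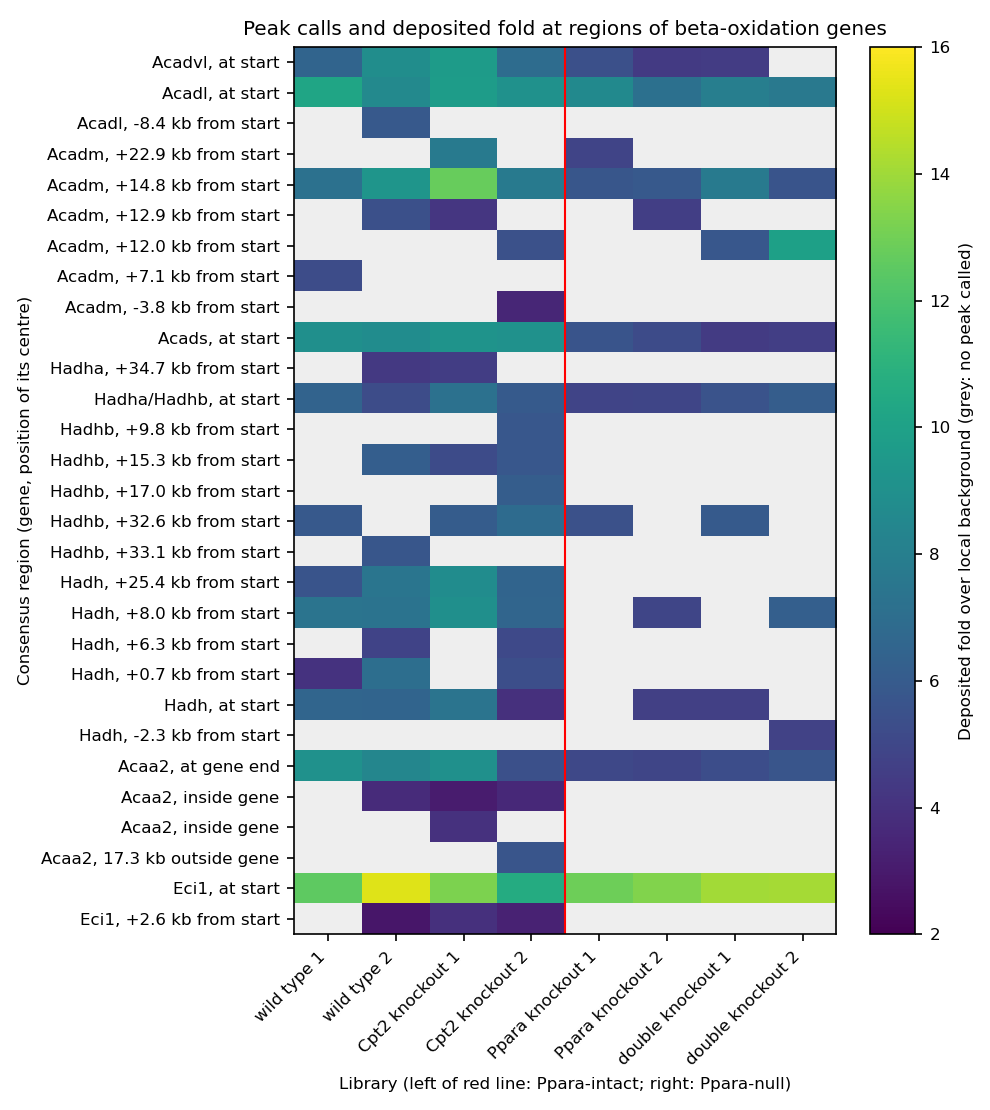
Deposited fold of the peak over its local background (colour) for each of the 29 regions (rows, by gene and by the distance of the region's centre from the transcription start) in each library (columns), grey where no peak was called. Rows at gene starts are coloured across nearly all columns, and most rows away from starts are grey right of the red line, which parts Ppara-intact from Ppara-null libraries.

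A single region separated completely by Ppara status, which here means that each library of a side has a peak and the opposite side has no peak at all, and it was inside Hadh. It was 1 of 29 regions (3.45%), where 6.82% of all consensus regions did so. In the opposite direction no beta-oxidation region separated, where 0.0686% of all did. Without wild type 1 the count rose to 4 regions (13.8%, against 11.8% of all regions), those inside Hadh, Hadhb, Eci1 and Acaa2. Wild type 1 had the shortest of the Ppara-intact lists, at 28733 peaks. Without Cpt2 knockout 1 the count was 2 regions (6.9%, against 7.22%), and without any other library it stayed at 1. With a library fewer, less has to be separated, so the count cannot fall. Counting regions called in at least 3 Ppara-intact and no Ppara-null libraries gave 5 of 29 (17.2%), near the 14.4% of all regions, and 0.268% of all regions met the reverse, with none of the 29 among them.

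The 4 acyl-CoA dehydrogenases act on successively shorter chains, and each had at most 1 region at its start. Acadvl, the very long-chain enzyme, had its only region at the start (chromosome 11, 70014968 to 70015606, mm10). The deposited fold there, by which MACS2 relates the reads piled up at a summit to a local background, was 6.52 and 8.86 in wild type, 9.67 and 6.96 in Cpt2 knockout, 5.39 and 4.36 in Ppara knockout and 4.5 in double knockout 1, and double knockout 2 had no peak. All values of the Ppara-null side lay below all of the Ppara-intact side. Such a gap was common: 60.0% of the 11258 consensus regions called in all 8 libraries, a set without this region, had it. The values are the authors' own for each peak, and no test was made on them.

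Acadl, the long-chain enzyme, had a region of 916 bp at its start (chromosome 1, 66862656 to 66863571) that was called in all 8 libraries. Its fold was 10.3 and 8.57 in wild type, 9.75 and 9.1 in Cpt2 knockout, 8.64 and 7.14 in Ppara knockout, and 7.97 and 7.64 in double knockout. The sides overlapped, since Ppara knockout 1 exceeded wild type 2. A second region 8298 bp outside Acadl was called in wild type 2 alone, at a fold of 5.89.

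Acadm, the medium-chain enzyme, had 6 regions and none at its start, the nearest lying 3675 bp upstream and called in Cpt2 knockout 2 alone. Its steady region lay inside the gene, 14825 bp downstream of the start (chromosome 3, 153929594 to 153930042), and had a fold of 7.24 and 9.28 in wild type, 12.7 and 7.7 in Cpt2 knockout, 5.74 and 5.92 in Ppara knockout, and 7.8 and 5.64 in double knockout. Double knockout 1 lay above wild type 1, so the sides overlapped. A neighbouring region at 12011 bp (153932427 to 153932838) was called in both double knockouts, at 5.83 and 9.98, in Cpt2 knockout 2 at 5.49, and in no wild type or Ppara knockout library. This was the only beta-oxidation region that separated toward double knockout, in 1 of 29 regions both against wild type, where 1.2% of all regions did, and against Ppara knockout, where 2.33% did. In equal-number lists it was again the 1 region in both comparisons, where 3.08% and 2.03% of all regions separated so.

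Acads, the short-chain enzyme, had 1 region, at its start (chromosome 5, 115118941 to 115119562), called in all 8 libraries. The fold was 8.95 and 8.82 in wild type, 9.2 and 9.1 in Cpt2 knockout, 5.61 and 5.21 in Ppara knockout, and 4.43 and 4.58 in double knockout. The sides were far apart, with means of 9.02 ± 0.166 and 4.96 ± 0.551 (SD, n = 4 each). Among the 6 regions called in all 8 libraries it was the only one whose folds did not overlap between the sides, while 60.0% of the 11258 consensus regions called in all 8 had a higher fold in every Ppara-intact library and 0.222% in every Ppara-null one.

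Hadha and Hadhb encode the alpha and beta subunits of the trifunctional protein and are transcribed away from each other. A single region of 1155 bp covered both starts (chromosome 5, 30154477 to 30155631) and was called in all 8 libraries, with a fold of 6.47 and 5.27 in wild type, 7.22 and 5.94 in Cpt2 knockout, 4.88 and 4.93 in Ppara knockout, and 5.61 and 6.14 in double knockout. Double knockout 2 exceeded wild type 2 and Cpt2 knockout 2, so the sides overlapped. In 1 or more libraries this region held 2 peaks, of which the stronger value is given. Of the other 6 regions of the pair, 5 were called in Ppara-intact libraries only, in 1 to 3 of the 4. Calls on the Ppara-intact side alone, in any number of its libraries, were common throughout, at 15 of the 29 beta-oxidation regions (51.7%) and 42.3% of all regions, and the reverse held at 1 of the 29 (3.45%) and 5.43% of all. Among these the region inside Hadhb at 15302 bp (30170289 to 30170822) had folds of 6.17 in wild type 2 and of 5.21 and 5.81 in Cpt2 knockout.

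Hadh, the soluble short-chain hydroxyacyl-CoA dehydrogenase, had 6 regions, of which wild type libraries called 4 and 5, Cpt2 knockout 3 and 5, Ppara knockout 0 and 2, and double knockout 1 and 2. The counts of the sides did not overlap, and neither did the shares of all regions outside the 10 genes, at 56.9% to 77.7% against 35.5% to 44.5%. The separated region, of 888 bp, lay 25429 bp downstream of the start (chromosome 3, 131246229 to 131247116). Its fold was 5.61 and 7.44 in wild type and 8.82 and 6.54 in Cpt2 knockout (7.1 ± 1.37 over the 4, SD), at percentiles 50.1 to 79.1 of those lists by −log10 p, and no Ppara-null library had a peak. In equal-number lists it was again the 1 separated region of the 29 (3.45%), where 0.811% of all regions separated in this direction and 0.512% in the other. Where peaks had to cover 50% of a region, it was called in 2 of the 4 Ppara-intact libraries and no Ppara-null one. For a single region with this pattern the two-sided exact permutation test over 70 orders of the library labels gives p = 0.0286, the smallest it can give, and a Benjamini-Hochberg adjusted p of 0.415 over all 49587 regions. Of all regions, 3418 had an unadjusted exact p below 0.05 and 0 an adjusted one. With 4 libraries a side, an adjusted p below 0.05 would need far more separated regions than these. Its absence therefore says nothing about any single region. The labels do not say whether the libraries are separate animals, so the p measures only the spread between these libraries.

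None of the remaining regions of Hadh separated completely by Ppara status. The Hadh start (131271818 to 131272317) had a fold of 6.54 and 6.51 in wild type and 7.39 and 3.96 in Cpt2 knockout. It was 4.65 in Ppara knockout 2 and 4.63 in double knockout 1, with no peak in the other Ppara-null libraries. Cpt2 knockout 2 lay below these Ppara-null values, so the folds overlapped. The region 8011 bp downstream (131263832 to 131264348) was called in all 4 Ppara-intact libraries at 6.59 to 8.95, in Ppara knockout 2 at 4.95 and in double knockout 2 at 6.25. A region 726 bp downstream (131271208 to 131271543) was called in both wild types, at 4.06 and 7.08, in Cpt2 knockout 2 at 5.34, and never without Ppara. The region 6340 bp downstream was called in wild type 2 at 4.8 and Cpt2 knockout 2 at 5.11 alone. Calls on the Ppara-intact side alone, as at these 2 regions, were made at 42.3% of all regions. Double knockout 2 alone had a peak upstream of Hadh, 2188 bp outside the gene, at 4.78.

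**Figure D3:**
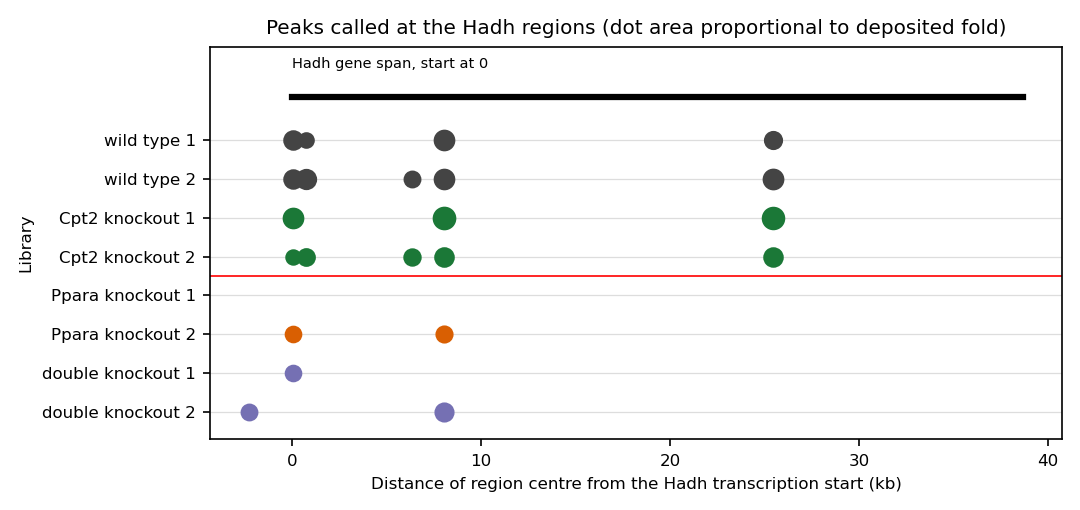
Peaks called at the 6 Hadh regions, placed by the distance of the region's centre from the transcription start (x axis, kb) in each library (rows); dot area is proportional to the deposited fold and the black bar is the gene span. All 4 Ppara-intact libraries have a dot near 25 kb and the 4 Ppara-null libraries below the red line have none.

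Acaa2, the thiolase that releases acetyl-CoA in the last step, had 4 regions on chromosome 18. The one at the low-coordinate end of the gene (74778225 to 74779560) was called in all 8 libraries, with a fold of 9.11 and 8.44 in wild type, 9.03 and 5.41 in Cpt2 knockout, 5.02 and 4.93 in Ppara knockout, and 5.31 and 5.69 in double knockout. The sides overlapped through Cpt2 knockout 2 alone. By −log10 p the sides did not overlap, at 61.4 to 143 with Ppara intact and 27.3 to 31.9 without it. Such a gap in −log10 p was present at 4 of the 6 steady regions and at 76.4% of all regions called in all 8 libraries, and the reverse gap at 0.329%. The other 3 regions of Acaa2 had peaks in 1 to 3 of the Ppara-intact libraries and nowhere else, the pattern given above for 42.3% of all regions.

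Eci1, the isomerase that lets unsaturated fatty acids enter the cycle, had a steady region whose mean fold was not lower without Ppara. The region at its start (chromosome 17, 24426343 to 24426949) had a fold of 12.6 and 15.3 in wild type, 13.2 and 10.6 in Cpt2 knockout, 12.9 and 13.3 in Ppara knockout, and 14 and 14.1 in double knockout. The sides overlapped, with means of 12.9 ± 1.94 and 13.6 ± 0.561 (SD, n = 4 each). Its −log10 p was 120 to 217 with Ppara intact and 95.4 to 123 without it, also with overlap. The ratio of the Ppara-null to the Ppara-intact mean was 1.05 at Eci1 and 0.55 at Acads, and its median over the 11258 steady regions was 0.68. A second region inside Eci1 (24429129 to 24429486) was called in wild type 2 and both Cpt2 knockouts, at folds of 2.82 to 3.95. Its peak in wild type 2 stood at percentile 1.02 of that list by −log10 p. It was not called without Ppara, and 14.4% of all regions were called in at least 3 Ppara-intact and no Ppara-null libraries. Etfdh, which passes electrons from the dehydrogenases to ubiquinone, had no region: the nearest to its span lay 12141 bp away, belonged to Ppid and was called in 7 libraries, and the nearest to its start lay 37120 bp away.

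**Figure D4:**
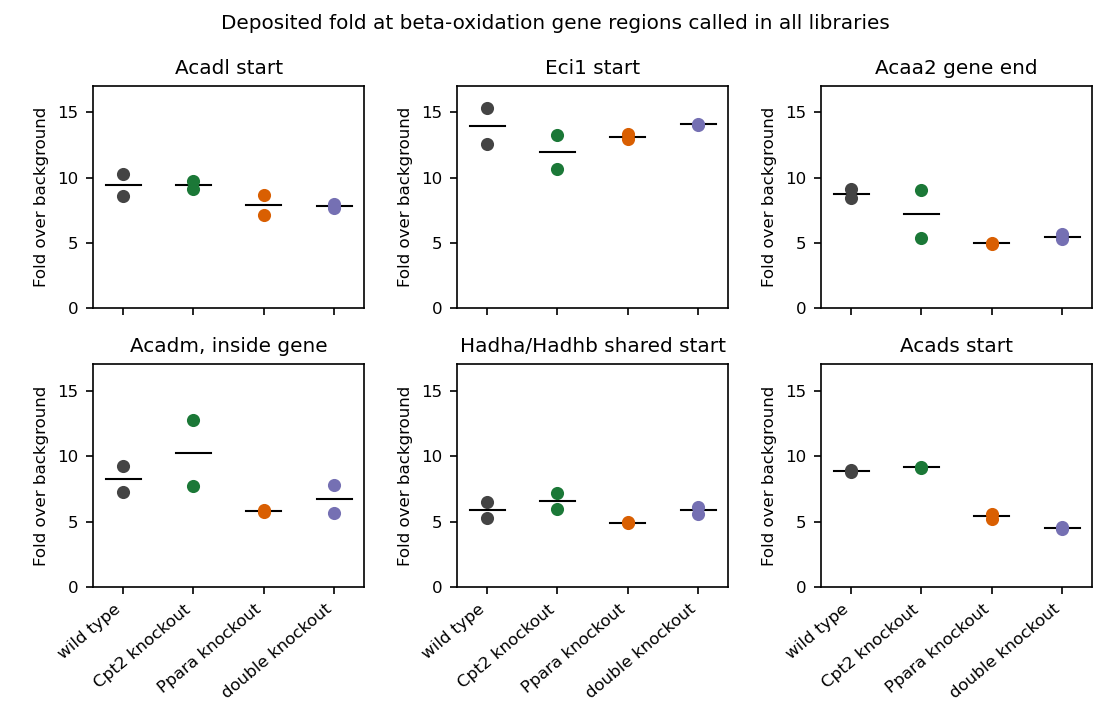
Deposited fold over local background (y axis) at the 6 steady regions, called in all 8 libraries, with 1 dot per library, grouped by genotype (x axis), and a bar at the mean of the 2 libraries. The Acads dots of Ppara knockout and double knockout (4.43 to 5.61) lie below those of wild type and Cpt2 knockout (8.82 to 9.2), and the Eci1 dots overlap.

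Because folds were lower at most steady regions in the Ppara-null libraries, each steady region was also ranked by fold among the same 11258 regions within each library, so that all ranks come from lists of the same regions. Eci1 stood at percentile 58.9 to 83.8 in Ppara-intact and at 96.2 to 98.1 in Ppara-null libraries, without overlap. It was the only 1 of the 6 that separated, and 6.68% of the 11258 had a higher rank in every Ppara-null library. None of the 6 had a lower rank in every Ppara-null library, where 5.36% of the 11258 did. Acads came closest, at 24.3 to 45.9 against 4.68 to 25, and it separated once wild type 2 was left out. Acadl went the other way, at 21.9 to 61.9 against 57.9 to 74.8, with overlap. The Hadha and Hadhb start ranked low on both sides, at 1.99 to 15.5 and 11.7 to 40. These ranks were chosen after the form of the data was known, and no test was made on them.

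By pairs of genotypes, Ppara knockout against wild type gave 2 of 29 regions (6.9%) called in both wild types and neither Ppara knockout, where 13.6% of all regions were, and both were in Hadh, at 25429 and 726 bp. In the reverse direction there were none, where 0.46% of all regions were called. Without wild type 1 the count was 9 (31%, against 29.8% of all regions), and without Ppara knockout 2 it was 4 (13.8%, against 17.4%), with 1 in reverse (3.45%, against 2.31%). The same 2 Hadh regions separated double knockout from wild type, where 12.9% of all regions did. There the count was 10 (34.5%, against 29.6% of all regions) without wild type 1 and 4 (13.8%, against 21.3%) without double knockout 1. Leaving out double knockout 1 also gave 2 regions called only in double knockout (6.9%, against 2.85%). These comparisons share the wild type libraries.

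Double knockout against Cpt2 knockout gave 4 of 29 regions (13.8%) called in both Cpt2 knockouts and neither double knockout, where 20.4% of all regions were. They lay inside Hadh, Hadhb, Acaa2 and Eci1, and none separated the other way, where 0.597% of all did. The count was 10 (34.5%, against 28.4% of all regions) without Cpt2 knockout 1, 8 (27.6%, against 34.5%) without Cpt2 knockout 2 and 7 (24.1%, against 29.9%) without double knockout 1. In the other direction 1 region (3.45%) separated without Cpt2 knockout 2, where 1.07% of all did, and 1 without double knockout 1, where 1.91% did. In equal-number lists the Hadh region at 25429 bp was the 1 region (3.45%) that set wild type apart from Ppara knockout and from double knockout, and Cpt2 knockout apart from double knockout, where 3.44%, 3.35% and 2.99% of all regions did so. In the same lists the Acadm region at 12011 bp was called only in double knockout against Cpt2 knockout, where 2.61% of all regions were, besides its separation from wild type given above.

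By Cpt2 status no beta-oxidation region separated in either direction. Cpt2 knockout against wild type gave 0 of 29 regions called only in Cpt2 knockout, where 3.63% of all regions were, and 0 called only in wild type, where 0.512% were. The 4 Cpt2-null against the 4 Cpt2-intact libraries likewise gave 0 of 29 in each direction, where 0.0968% and 0.00605% of all regions were called. Leaving out any 1 of the 4 libraries gave 1 to 5 regions called only in Cpt2 knockout, with 5 (17.2%, against 9.83% of all regions) without Cpt2 knockout 1, 3 (10.3%, against 12%) without wild type 2, 2 (6.9%, against 11.7%) without Cpt2 knockout 2 and 1 (3.45%, against 5%) without wild type 1. Regions called only in wild type then numbered 2 (6.9%, against 5.37%) without wild type 1, 1 (3.45%, against 2.54%) without wild type 2 and 1 (against 1.21%) without Cpt2 knockout 2. Without Cpt2 knockout 1 the Acadm region at 12011 bp was called in the Cpt2-null libraries alone, where 0.254% of all regions were. Against Ppara knockout, double knockout alone called the Acadm region at 12011 bp, and no region was called only in Ppara knockout, where 1.45% of all regions were. Leaving out double knockout 1 gave 2 regions called only in double knockout (6.9%, against 4.85% of all) and 1 only in Ppara knockout (3.45%, against 4.6%). There was also 1 only in Ppara knockout without Ppara knockout 1 or Ppara knockout 2, where 4.85% and 5.41% of all were. With 2 libraries a side these counts have no test, and an absence of separated regions does not show equal accessibility.

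The other genes of fatty acid oxidation were read in the same way, from lists written with earlier results of these data known. Of 15 other mitochondrial genes, which cover the carnitine shuttle, electron transfer flavoprotein and auxiliary enzymes, 52 regions were assigned and 6 (11.5%, against 6.82% of all regions) were called only with Ppara intact, in 6 genes. The share of these 52 called was 76% with Ppara intact and 43.3% without it, and 1 region (1.92%, against 0.0686% of all) was called only without it. Of 17 peroxisomal genes, 88 regions were assigned and 14 (15.9%, against the same 6.82%) were called only with Ppara intact, in 8 genes, none was called only without it, and the shares were 80.1% and 37.2%. The difference between the sides was -28.4 points for the beta-oxidation enzymes, -32.7 for the other mitochondrial genes, -42.9 for the peroxisomal genes and -30.6 for all remaining regions. Whether these lists differ from each other was not tested.

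The highest ranked of the separated regions in the other mitochondrial list lay inside Cpt2, itself deleted in liver in 4 of the 8 libraries, at folds of 5.89 to 9.26 over the 4 Ppara-intact libraries. Next came regions inside Eci2, a second enoyl-CoA isomerase (6.91 to 9.13), inside Crat, carnitine acetyltransferase (3.31 to 4.37), and inside Decr1, the dienoyl-CoA reductase of unsaturated fatty acids (6.31 to 7.31). Eci2 also had a region 11149 bp away that was called only in the Ppara-null libraries, at 6.69 to 8.37. In the peroxisomal list the highest ranked lay at the start of the thiolase Acaa1b (4.38 to 7.29), near the thioesterase Acot4 (6.81 to 11.8), inside the sterol carrier protein Scp2 (4.72 to 5.62) and inside the thioesterase Acot3 (5.47 to 8.61). Among the beta-oxidation enzymes no region at a start separated in this way in the deposited lists.

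**Figure D5:**
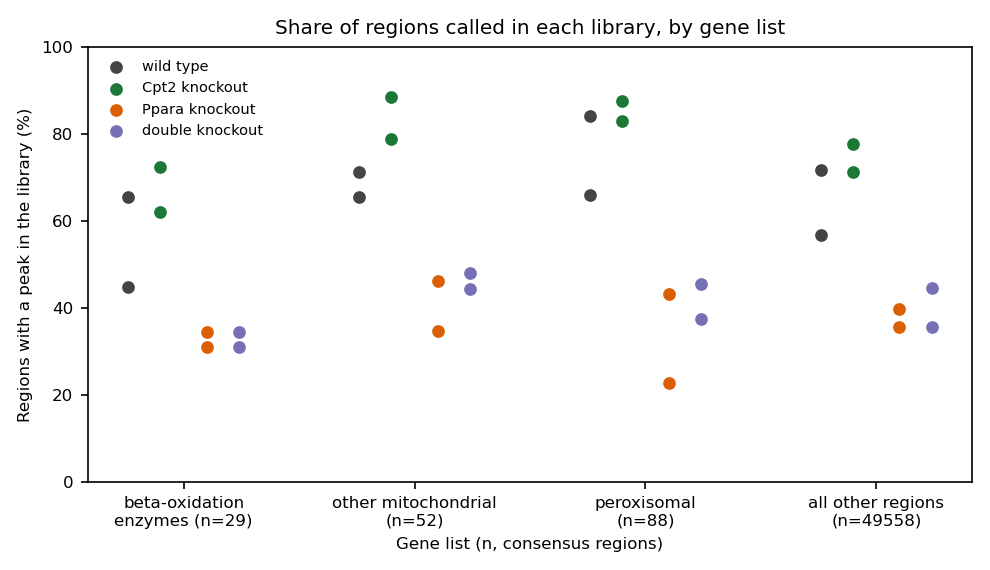
Percentage of regions with a peak (y axis) in each library (dots, coloured by genotype) for the beta-oxidation enzymes, the other mitochondrial genes, the peroxisomal genes and all other regions (x axis, n is the number of consensus regions). In each list and in all other regions, the Ppara knockout and double knockout dots lie below each of the wild type and Cpt2 knockout dots. They lie at 31% to 34.5% for the beta-oxidation enzymes and at 35.5% to 44.5% for all other regions.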

How the data were processed

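The data comprised 8 ATAC-seq peak lists and a table of consensus regions from fasted mouse liver. Reads were aligned with BWA and peaks called with MACS2 2.1.0 on mm10, per the submitters' processing notes, and separately per library, per the peak names in the files. How duplicates and the transposase offset were handled is not given in the sources used here. For each peak the authors deposited a score (10 times −log10 p, rounded down), a fold (the ratio of summit pileup to local background) and −log10 p and −log10 q values. The other deposited values, in the consensus table, are the start and end of each region, so no model per region was fitted.

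A region was called in a library that had a peak sharing 1 bp or more with it, and the strongest such peak gave its values. Genes were the 21900 protein-coding spans of RefSeq GRCm38.p6, and ties went to each gene. Completely separated regions were counted in 7 comparisons, beside their share of all regions. Alternatives were equal-number lists, a −log10 q of at least 20, 50% cover, a limit of 5 kb and leaving out each library; the replicate number was used as a block for the exact p. The permutation code was tested on simulated calls. All 10 genes were named, and each region was counted. From each other list, the genes named were the 4 with the highest mean percentile at a separated region. The members and lists were chosen with earlier results of these data known. Python 3.11.15, NumPy 2.4.6, pandas 2.3.3, SciPy 1.17.1 and matplotlib 3.10.9 were used.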

Additional observations from a re-analysis of the deposited data

How the results depend on the processing

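The single region called only with Ppara intact became 4 under the stricter q, a −log10 q of 20 or more (the Hadh regions at 25429 and 8011 bp, the Hadha and Hadhb start and the Acads start), against 9% of all regions. At 50% cover it became 2 others, the Hadh region at 8011 bp and the Hadha and Hadhb start, against 8.71%, and the Hadh region at 25429 bp was not among them. For Ppara knockout against wild type the 2 regions called only in wild type became 1 in equal-number lists (3.44% of all regions) and 6 under the stricter q (20.7%, against 15.4% of all). For double knockout against wild type the 2 became 1 in equal-number lists (3.35% of all regions), 6 under the stricter q (20.7%, against 13.4%) and 4 at 50% cover (13.8%, against 16.3%). For double knockout against Cpt2 knockout, equal-number lists gave 1 region called only in Cpt2 knockout in place of 4 (2.99% of all regions), and 1 only in double knockout in place of 0 (2.61%). For Cpt2 knockout against wild type, 50% cover gave 1 region called only in Cpt2 knockout in place of 0 (3.92% of all regions). The difference in the share called by Ppara status, -28.4 points, was 0 in equal-number lists. For all other regions it went from -30.6 to -0.687 points. Equal-number lists bring the shares over all regions close together by construction, and the cause of the difference was not tested. A limit of 5 kb changed no count of separated regions.

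Leaving out 1 library gave 1 to 4 regions called only in Ppara-intact and 0 to 0 only in Ppara-null libraries, and 0 to 0 only in Cpt2-intact and 0 to 1 only in Cpt2-null ones. By pairs the ranges were 2 to 9 only in wild type and 0 to 1 only in Ppara knockout, 5 to 10 only in Cpt2 knockout and 0 to 1 only in double knockout, and 3 to 10 only in wild type and 1 to 2 only in double knockout. Cpt2 knockout against wild type gave 0 to 2 only in wild type and 1 to 5 only in Cpt2 knockout, and double knockout against Ppara knockout 0 to 1 and 1 to 2. The shares of all regions moved as well, at 7.22% to 11.8% only in Ppara-intact libraries. By pairs they were 17.4% to 29.8% only in wild type against Ppara knockout and 14.9% to 29.6% only in wild type against double knockout. Only in Cpt2 knockout against double knockout they were 22.8% to 34.5%. For Cpt2 knockout against wild type they were 1.21% to 5.37% only in wild type and 5% to 12% only in Cpt2 knockout. For double knockout against Ppara knockout they were 2.13% to 5.41% only in Ppara knockout and 3.81% to 8.48% only in double knockout. The difference in the share of beta-oxidation regions called by Ppara status ranged from -33.9 to -24.7 points. The steady regions with a lower fold rank in every Ppara-null library numbered 0 to 1, and 0 by rank of −log10 p. With the replicate number as a block, the exact p of a separated region was 0.125, the smallest of 16 orders (adjusted p = 1). The labels do not tie equal numbers together, and the correlation of replicate differences between genotypes was -0.0314 to 0.0255, so the numbers were not taken as pairs.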
